A study of Mus musculus with 9 samples.

Results

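The levels of 9 genes of retinal amacrine cells were followed through oxygen-induced retinopathy (OIR) in mice, 7 that make or move a transmitter and 2 AP-2 transcription factors. They were taken by symbol as Gad1, Gad2, Slc32a1, Slc6a9, Chat, Slc18a3, Th, Tfap2a, and Tfap2b, and all 9 were found among the 54532 genes of the count table. All 9 also passed the filter on low counts, which left 17540 genes. Retinal RNA was sequenced at postnatal day 17 (P17) from 9 wild type C57BL/6 mice, 3 per group. Control mice were kept in room air and carry the label DMSO. OIR mice went through the oxygen model, in which pups are held in high oxygen until the central retinal vessels are lost and are then returned to room air at P12, and were given DMSO. Treated OIR mice went through the same model and were given 32-134D, an inhibitor of the hypoxia-inducible factors (HIFs), by an intraocular injection at P12, with a treatment label of 70 ng. Mice are named by the numbers of their labels, and values are given in the order control mice 1, 6, and 7, OIR mice 3, 5, and 6, and treated OIR mice 2, 5, and 10. Whether mice of a group shared a litter is not given in the sources used here.

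Amacrine cells are the inhibitory interneurons of the inner retina. Most release GABA or glycine onto bipolar, ganglion, and other amacrine cells, and small populations release a further transmitter. The starburst cells release acetylcholine along with GABA and are known for their role in detecting the direction of motion, and the dopaminergic cells set retinal sensitivity to ambient light. Each transmitter needs an enzyme or an uptake carrier to supply it and a vesicular transporter to load it for release, so these genes serve as markers of the cell types that use them. In whole retina, fewer cells of a type and less RNA per cell cannot be told apart.

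Total counts ranged from 16028731 to 27213184 per mouse. The libraries differed in lens RNA. Crystallin genes took 15.8% of the counts in treated OIR mouse 2 and at most 0.186% in the other 8 mice. This library was also the lowest of the 9 for most lists of cell markers described below. Its median log2 difference from the control mean was -4.87 for the ganglion cell markers. Levels are given as CPM, read counts scaled to the size of the library, with TMM factors, and fold changes are log2 values with a standard error (SE) from edgeR's quasi-likelihood fit on all 9 mice, with Benjamini-Hochberg adjustment over the 17540 genes.

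All 9 genes were lower in OIR than in control retina, and for each of them every OIR mouse lay below every control mouse. Of all genes tested, 17.2% showed such a complete separation toward lower values. The cholinergic pair Chat and Slc18a3 stood at a few percent of the control level, and the GABA, glycine, dopamine, and AP-2 genes at 25.3% to 63.8% of it by the ratio of group means. The median log2 fold change over the 9 genes was -1.77, beside 0.03 over all genes. In the fit on all 9 mice 0 of the 9 were called, that is, had an adjusted p under 0.05, and 0.507% of all genes were called lower. An unadjusted p below 0.05 was found for 7 of the 9, and for 12.7% of all genes in that direction.

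**Figure D1:**
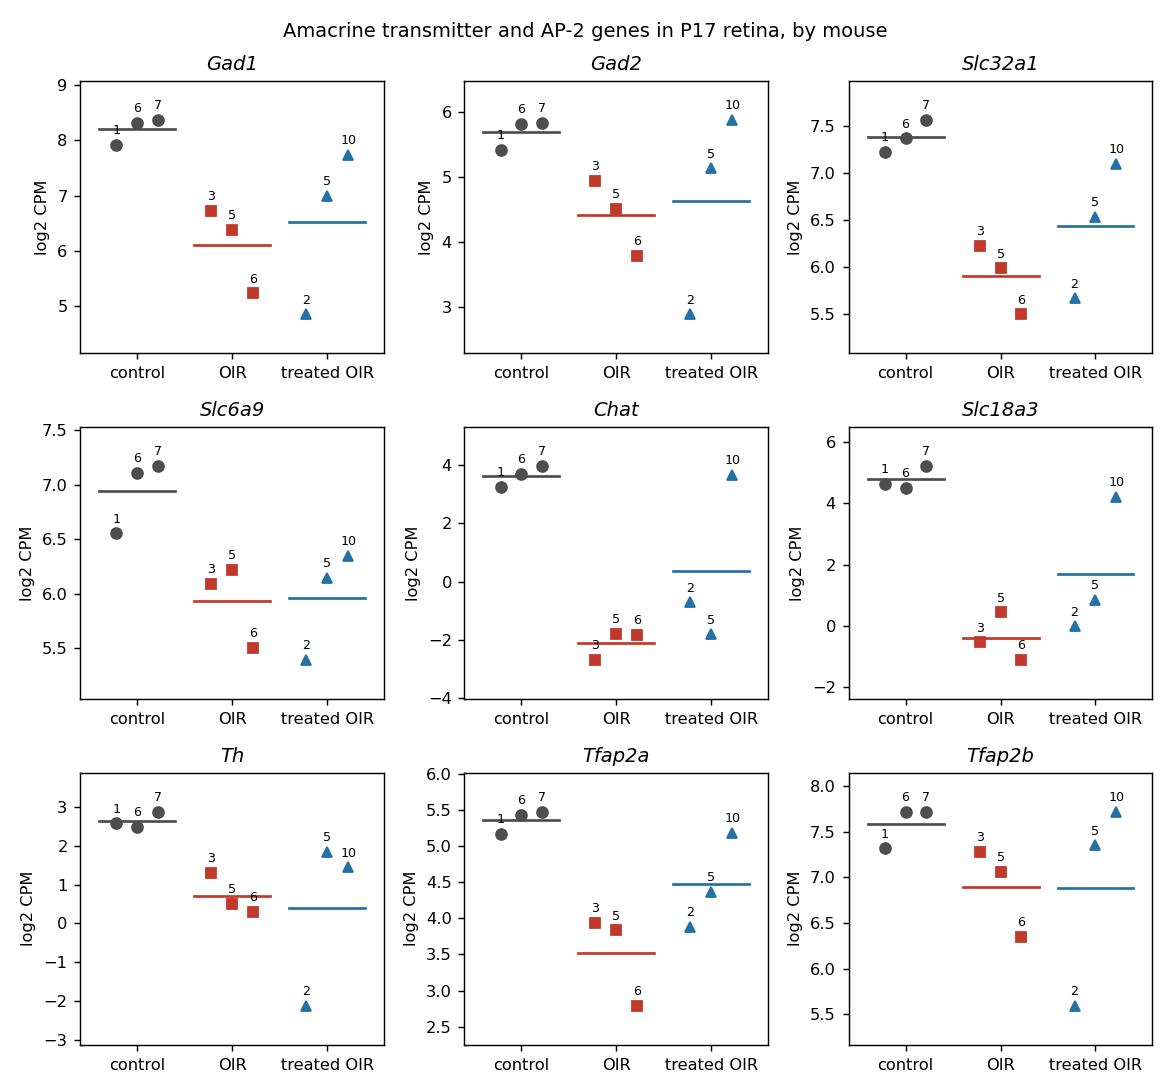
Log2 CPM (y axis) of each of the 9 genes in each mouse, by group (x axis); points are mice, numbered as in their labels, and horizontal lines are group means. All OIR mice lie below all control mice in each panel, and treated OIR mice 2 and 10 lie far apart.

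Gad1 and Gad2 encode the glutamate decarboxylases that make GABA. Gad1 (ENSMUSG00000070880, chr2:70553072-70602014, GRCm38, plus strand) had 242, 318, and 330.2 CPM in the control mice, 105, 83.0, and 37.4 CPM in the OIR mice, and 28.7, 127, and 212 CPM in the treated OIR mice. The OIR mice held 35.4%, 28.0%, and 12.6% of the control mean. The log2 fold change of Gad1 in OIR was -1.98 (SE 0.62), with an edgeR adjusted p of 0.110.

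Gad2 (ENSMUSG00000026787, chr2:22622205-22693874, plus strand), whose product is the form tied to synaptic vesicles, had 42.7, 56.2, and 56.7 CPM in control, 30.6, 22.7, and 13.7 CPM in OIR, and 7.30, 34.96, and 58.7 CPM in treated OIR mice. OIR mouse 6 was again the lowest of its group, and treated OIR mouse 10 was above all 3 controls. The log2 fold change of Gad2 in OIR was -1.22 (SE 0.59, edgeR adjusted p = 0.245).

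Slc32a1 (ENSMUSG00000037771, chr2:158610767-158615748, plus strand) encodes the vesicular transporter that loads both GABA and glycine. It had 149.7, 165, and 189 CPM in control, 74.5, 63.3, and 45.1 CPM in OIR, and 50.8, 92.5, and 137 CPM in treated OIR mice, so that every mouse of both OIR groups was below the controls. Its log2 fold change in OIR was -1.46 (SE 0.32, edgeR adjusted p = 0.0612). Slc6a9 (ENSMUSG00000028542, chr4:117834506-117875198, plus strand), the glycine carrier that marks glycinergic amacrine cells, had 93.8, 138, and 144 CPM in control, 68.0, 74.3, and 45.3 CPM in OIR, and 41.9, 70.6, and 81.3 CPM in treated OIR mice. The log2 fold change of Slc6a9 in OIR was -1.0004 (SE 0.28, edgeR adjusted p = 0.0902). Slc6a9 overlaps B4galt2 and Ccdc24 on the opposite strand, and since the strand setting of the counting is not given in the sources used here, its level is less certain.

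The other genes of GABA and glycine handling differed less. Of the 10 in a list of carriers, degrading enzymes, and receptor scaffolds, edgeR on all 9 mice called none in OIR and 2 on the 2 groups alone, 6 were lower, 2 of these with an unadjusted p below 0.05, and the median log2 fold change was -0.22. Slc6a5, the other glycine carrier, was at -0.90 (SE 0.57), Slc6a13, a GABA carrier, at 0.77 (SE 0.49), and Gphn, the scaffold of inhibitory receptors, at -0.45 (SE 0.14).

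Chat and Slc18a3 had the largest differences of the 9. Chat (ENSMUSG00000021919, chr14:32408203-32465989, minus strand) encodes the enzyme that makes acetylcholine, and Slc18a3 (ENSMUSG00000100241, chr14:32462438-32464850, minus strand) the transporter that loads it into vesicles. Slc18a3 consists of 1 exon and lies wholly within the span of Chat on the same strand, where it overlaps none of the annotated Chat exons. Their RefSeq start sites are 1059 bases apart. Because of this nested arrangement, reads from unspliced Chat RNA could be counted for Slc18a3. The 250 bases before each start site, from RefSeq on GRCm38.p6, are shown since the pair differed together, with Chat at chr14:32465910-32466159 and Slc18a3 at chr14:32464851-32465100, both on the minus strand. Capitals mark matches to the AP-2 motif GCCNNNGGC or to the HIF core motif ACGTG, searched on both strands.
Chat: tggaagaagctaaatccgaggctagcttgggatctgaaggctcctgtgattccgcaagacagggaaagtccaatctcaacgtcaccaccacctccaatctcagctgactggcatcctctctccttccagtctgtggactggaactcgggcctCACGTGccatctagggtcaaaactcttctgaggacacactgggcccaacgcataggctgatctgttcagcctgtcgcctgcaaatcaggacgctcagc
Slc18a3: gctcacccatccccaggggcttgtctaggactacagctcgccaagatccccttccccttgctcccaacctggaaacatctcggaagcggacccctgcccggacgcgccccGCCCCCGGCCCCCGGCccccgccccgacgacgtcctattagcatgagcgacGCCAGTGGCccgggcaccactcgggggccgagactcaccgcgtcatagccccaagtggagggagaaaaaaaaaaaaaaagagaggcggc
The window of Chat held the palindrome CACGTG, which contains the HIF core on both strands, and no AP-2 match. The window of Slc18a3 held 3 AP-2 matches, of which the first pair overlap, and no HIF core. Over the full 300-base windows, 250 before and 50 after a start, 16.6% of 32851 RefSeq promoters held the AP-2 motif and 19.6% the HIF core. Among the 12 windows of the 9 genes, the AP-2 motif occurred in those of Gad2 and Slc18a3 and the HIF core in that of Chat.

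Chat had 269, 256, and 241 counts in the control mice, 1, 4, and 4 counts in the OIR mice, and 8, 3, and 242 counts in the treated OIR mice. In CPM these were 9.39, 12.7, and 15.5 in control, 0.053, 0.186, and 0.180 in OIR, and 0.507, 0.184, and 12.4 in treated OIR mice. Treated OIR mouse 10 was within the control range, and the other 5 mice of the OIR groups were far below it. Pooled over mice, OIR retina held 1.21% of the control level of Chat, with an exact 95% interval of 0.552% to 2.31% that covers counting error only. The log2 fold change was -6.39 (SE 1.49, edgeR adjusted p = 0.0655), the 2nd lowest of 17540 genes.

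Slc18a3 had 706, 458, and 580 counts in control, 11, 27, and 8 in OIR, and 14, 28, and 361 in treated OIR mice, or 24.7, 22.7, and 37.4, then 0.588, 1.26, and 0.360, then 0.888, 1.72, and 18.6 CPM. The same mouse, treated OIR 10, stood near the controls. The pooled OIR level was 2.72% of control (exact 95% interval 1.98% to 3.64%, counting error only), and the log2 fold change was -5.25 (SE 1.11, edgeR adjusted p = 0.0602), the 5th lowest of all genes tested.

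The 6 genes of a list of acetylcholine handling and starburst cells differed in size and direction. Slc5a7, the choline carrier that feeds acetylcholine synthesis, had 10.4, 19.9, and 15.8 CPM in control, 0.428, 0.839, and 0.180 CPM in OIR, and 0.317, 0.859, and 17.2 CPM in treated OIR mice. Its pattern over the mice was that of Chat, with a log2 fold change in OIR of -4.98 (SE 1.34, edgeR adjusted p = 0.0867). Fezf1, a transcription factor of starburst cells, was at -1.35 (SE 0.59), and Ache, which breaks down acetylcholine, at -0.59 (SE 0.32). Megf10, a receptor that spaces starburst cells and that is also made by Müller glia, rose by 0.72 (SE 0.12, edgeR adjusted p = 0.0407), from 25.0, 27.8, and 27.6 CPM in control to 41.0, 42.4, and 49.2 CPM in OIR mice. The 2 remaining genes of the 6, Sox2 and Isl1, which are shared with Müller glia and with bipolar and ganglion cells, had log2 fold changes of 0.33 and 0.16 and overlapped between groups. In all, edgeR on all 9 mice called 1 of the 6 higher and none lower, and the median was -0.22. The call of Megf10 was lost when any of 7 mice was left out, with scaling by totals, and with sex as a covariate. On the control and OIR mice alone, 3 of the 6 were called lower and 1 higher.

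**Figure D2:**
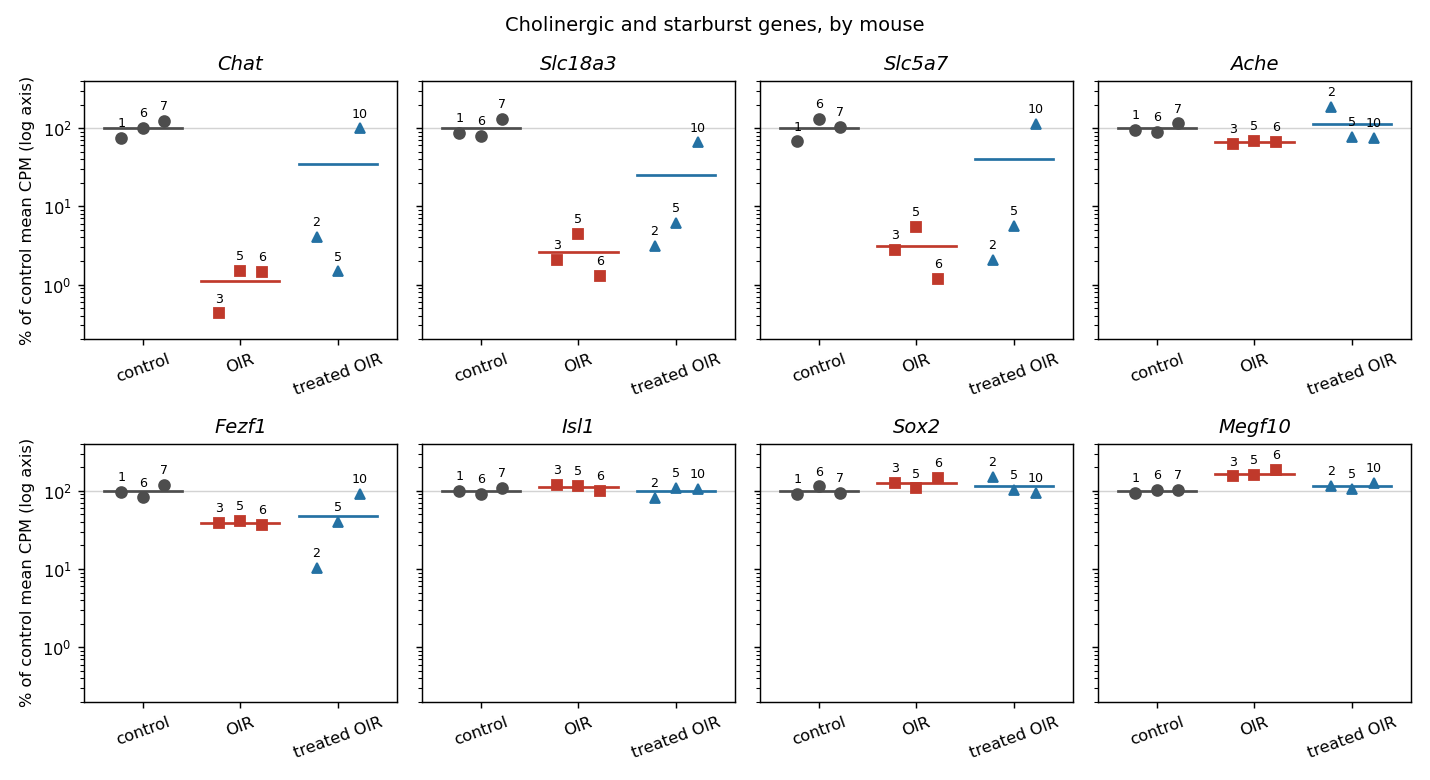
Level of 8 cholinergic and starburst genes in each mouse as a percent of the control mean CPM, on a log axis (y), by group (x); points are mice numbered as in their labels and horizontal lines are group means. Chat, Slc18a3, and Slc5a7 lie at 0.43% to 6.1% of the control mean in 5 of the 6 mice of the OIR groups and at 65.7% to 112% in treated OIR mouse 10, while Isl1, Sox2, and Megf10 stay near or above 100%.

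Th (ENSMUSG00000000214, chr7:142892752-142931128, minus strand) encodes tyrosine hydroxylase, the rate-limiting enzyme of dopamine synthesis. It is a low-count gene in whole retina, with 168, 111, and 113 counts in control, 44, 28, and 25 in OIR, and 2, 57, and 51 in treated OIR mice. Its levels were 5.87, 5.50, and 7.29 CPM, then 2.35, 1.31, and 1.13 CPM, then 0.127, 3.50, and 2.62 CPM. All 6 mice of the OIR groups were below the controls, and treated OIR mouse 2 was the lowest. The pooled OIR level was 25.5% of control (exact 95% interval 20.2% to 31.9%, counting error only), and the log2 fold change was -1.96 (SE 0.75, edgeR adjusted p = 0.161).

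Of 11 further genes of dopamine handling 10 were tested, edgeR called none on all 9 mice or on the 2 groups alone, 7 were lower in OIR, and the median log2 fold change was -0.15. Nr4a2, a transcription factor of dopaminergic neurons, had the largest difference, with 8.56, 9.36, and 11.2 CPM in control and 4.87, 6.06, and 2.02 CPM in OIR mice, and was at -1.17 (SE 0.43, edgeR adjusted p = 0.147). Slc18a2, the vesicular monoamine transporter, was at -0.56 (SE 0.23), Maob, which degrades dopamine, at -0.74 (SE 0.44), and Gch1, which supplies the cofactor of Th, at 0.81 (SE 0.62). The dopamine transporter gene Slc6a3 did not pass the filter, with counts of 6, 2, and 4 in control, 0 in every OIR mouse, and 0, 0, and 5 in treated OIR mice.

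Tfap2a and Tfap2b encode AP-2 alpha and AP-2 beta, transcription factors that mark amacrine cells broadly and are needed for their development. Tfap2a (ENSMUSG00000021359, chr13:40715302-40738376, minus strand) had 35.8, 43.1, and 44.4 CPM in control, 15.2, 14.1, and 6.79 CPM in OIR, and 14.6, 20.5, and 36.3 CPM in treated OIR mice. Its log2 fold change in OIR was -1.77 (SE 0.37, edgeR adjusted p = 0.0599). Tfap2b (ENSMUSG00000025927, chr1:19208914-19238576, plus strand) showed the smallest difference of the 9, with 159, 209.8, and 211 CPM in control, 155, 133.6, and 81.2 CPM in OIR, and 48.1, 163, and 211 CPM in treated OIR mice. OIR mouse 3 lay just under control mouse 1, and the log2 fold change was -0.65 (SE 0.45, edgeR adjusted p = 0.414).

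Of 21 further genes of amacrine identity and types, 20 were tested and edgeR on all 9 mice called none. In OIR 19 of the 20 were lower, 15 with an unadjusted p below 0.05 among those lower, and the median log2 fold change was -1.20. edgeR on the control and OIR mice alone called 12 lower, and edgeR without treated OIR mouse 2 called 14 lower and 1 higher. Calb2 (calretinin), which is shared with ganglion cells, had 502, 540.3, and 793 CPM in control and 131, 55.2, and 9.40 CPM in OIR mice, at -3.23 (SE 1.23). Ebf3 was at -2.53 (SE 0.82) and Nhlh2 at -2.51 (SE 0.62), both transcription factors. Neurod6, a transcription factor of an amacrine type that uses neither GABA nor glycine, had 3, 0, and 0 counts in OIR mice, and no fold is given. Genes tied to the AII type, a glycinergic cell of the rod pathway, were at -0.28 (SE 0.21) for Dab1, -0.12 (SE 0.25) for Gjd2, and 0.53 (SE 0.16) for Prox1, which bipolar, horizontal, and Müller cells also express. These 3 fall outside the rule for naming genes and were chosen after their values were seen. Prox1 was the 1 gene of the 20 that was not lower. Slc6a9, the marker of glycinergic amacrine cells among the 9 genes, was at -1.0004 (SE 0.28). How specific the 3 genes are to AII cells was not tested, nor was whether AII cells differed from other glycinergic cells.

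**Figure D3:**
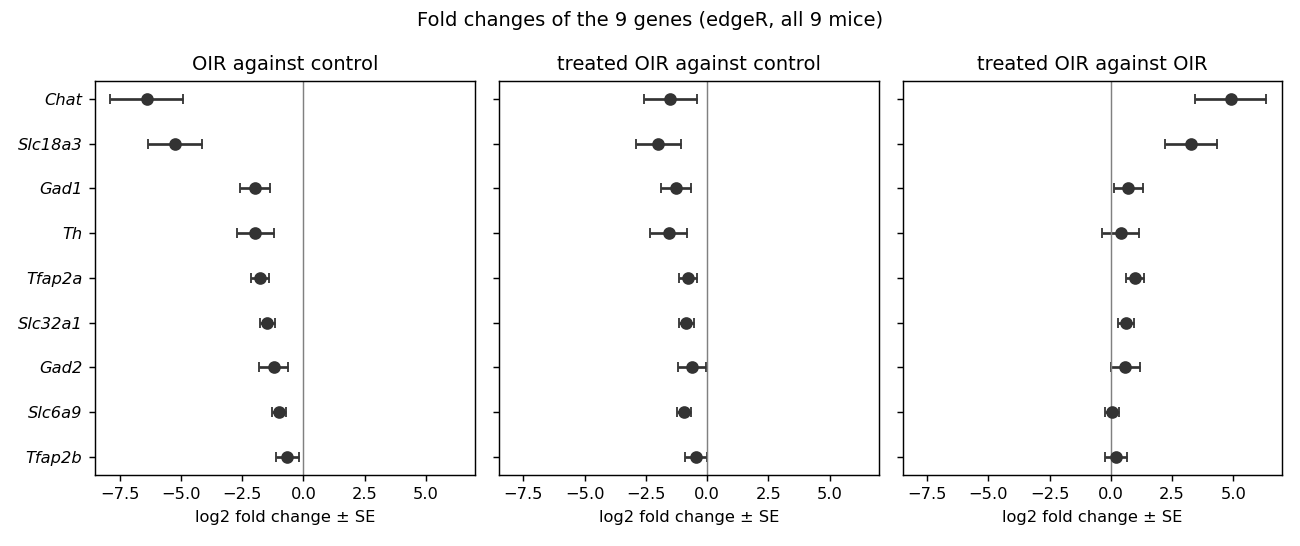
Log2 fold change (x axis, point) with its SE (bar) of each of the 9 genes (y axis) in the 3 comparisons, from edgeR on all 9 mice. Values run from -6.39 to -0.65 in OIR against control, from -1.99 to -0.46 in treated OIR against control, and from 0.05 to 4.89 in treated OIR against OIR.

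The calls in OIR against control depended on which mice and which method set the spread. Over all alternatives the log2 fold change ranged from -7.02 to -6.04 for Chat, from -2.30 to -1.66 for Gad1, and from -0.85 to -0.42 for Tfap2b, the last without OIR mouse 6. When edgeR was fitted to the control and OIR mice alone, 8 of the 9 genes were called lower, with 7.44% of all genes called lower. The 8 had edgeR adjusted p of 0.00308 for Chat, 0.00484 for Slc18a3, 0.00837 for Slc32a1, 0.0123 for Tfap2a, 0.0140 for Gad1, 0.0153 for Th, 0.0239 for Slc6a9, and 0.0275 for Gad2, and Tfap2b had 0.106. DESeq2 on those 6 mice called all 9 lower (9.98% of all genes), with an adjusted p of 0.0171 for Tfap2b. Without treated OIR mouse 2, edgeR on the remaining 8 mice called 8 of the 9 lower (8.59% of all genes), and without treated OIR mouse 10 it called 4 (0.736%). On all 9 mice, DESeq2 called 6 lower (7.3%), with no adjusted p for Slc18a3, and limma-voom with sample quality weights called 6 (7.91%). With no filter on low counts edgeR called 4 (1.11%), and with at least 10 counts in every mouse, a filter that Chat, Slc18a3, and Th did not pass, it called 1 (1.38%).

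In treated OIR against control the 9 genes were again all lower, by less, with a median log2 fold change of -0.95 beside 0.01 over all genes. None was called by edgeR on all 9 mice, in which 0.0114% of all genes were called lower. Gad1, Slc32a1, Slc6a9, Slc18a3, and Th lay below the controls in every treated mouse, and 12.2% of all genes did so. An unadjusted p below 0.05 was found for Slc32a1 at -0.85 (SE 0.32) and Slc6a9 at -0.95 (SE 0.28), and for 8.6% of all genes in that direction. DESeq2 on all 9 mice called Slc6a9 (2.18% of all genes), and limma-voom called Slc6a9, Chat, and Slc18a3 (2.66%). Without treated OIR mouse 10, the log2 fold change of Chat went from -1.50 to -5.16 and Chat was called (edgeR adjusted p = 0.0432, with 0.0166% of all genes called lower), and that of Slc18a3 went from -1.99 to -4.43. Without treated OIR mouse 2, that of Gad1 went from -1.27 to -0.80 and that of Tfap2b from -0.46 to -0.04.

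In treated OIR against OIR the 9 genes were all on the higher side, with a median log2 fold change of 0.62 beside 0.01 over all genes, and none was called by any method. edgeR on all 9 mice called 0% of all genes higher. For none of the 9 did every treated mouse lie above every OIR mouse, which 3.74% of all genes did. Chat was at 4.89 (SE 1.46), Slc18a3 at 3.26 (SE 1.06), and Tfap2a at 0.99 (SE 0.37), each with an unadjusted p below 0.05, as had 2.39% of all genes in that direction, and with edgeR adjusted p of 0.984, 0.990, and 0.9998. DESeq2 on those 2 groups gave no adjusted p for Chat, and Chat did not pass the filter of edgeR on them. Slc6a9 differed least, at 0.05 (SE 0.28), and was at -0.01 when libraries were scaled by total counts alone. The values depended on single treated mice. Without treated OIR mouse 10, Chat was at 1.23, Slc18a3 at 0.82, Tfap2a at 0.55, Th at 0.19, and Gad1 at 0.05, and Gad2, Slc6a9, and Tfap2b were below 0. Without treated OIR mouse 2, the lens-rich library, Gad1 was at 1.20, Gad2 at 1.10, Th at 0.97, and Slc6a9 at 0.31. Without treated OIR mouse 5, Th was at -0.18. The 2 comparisons with the OIR group and the 2 with the control group share mice, so their values are not independent.

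The 3 treated mice took 3 different positions. Treated OIR mouse 10 was above all OIR mice for all 9 genes and at or above the lowest control for 4 of them. Treated OIR mouse 5 was above all OIR mice for 7 genes and at or above the lowest control for 1. Treated OIR mouse 2 was below all controls for 9 genes and below all OIR mice for 5. Among OIR mice, mouse 6 was the lowest for 8 of the 9 genes. Treated OIR mouse 2 is the library with 15.8% crystallin counts, and the part of lens RNA in its values was not tested.

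The ganglion cell markers ranked the mice in a similar order, and treated OIR mouse 2 was also low for other lists. The median log2 difference from the control mean over the 9 genes was -1.35, -1.53, and -2.36 in the OIR mice and -2.80, -0.85, and -0.29 in the treated OIR mice. For the ganglion cell markers, which were lower in OIR for 12 of 12 genes with a median of -1.87 and, by edgeR, none called on all 9 mice and 5 on the 2 groups alone, it was -1.03, -1.90, and -3.58, then -4.87, -0.50, and -0.49. Their summed level was 1677 to 2388 CPM in control, 227 to 852 CPM in OIR, and 149 to 1397 CPM in treated OIR mice. By the same median, treated OIR mouse 2 was also the lowest mouse for bipolar (-0.41), rod (-0.36), cone (-0.46), and Müller glia markers (-0.68). The same held for GABA and glycine handling (-0.99), but not for astrocyte, endothelial, or pigment epithelium markers. Some genes of the inner retina, such as Calb2 and the synapsins, are made by ganglion and amacrine cells alike, and the part of each cell type was not tested. Of 12 genes of synaptic vesicle release, 11 were lower in OIR, edgeR called none on all 9 mice and 4 on the 2 groups alone, and the median was -0.57, with Syn2 at -1.88 (SE 0.54) and Syn1 at -1.43 (SE 0.41).

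The lists for other cells had medians smaller in size than that of the 9 genes. Single genes went further, from -1.32 to 0.95 among the horizontal cell markers in OIR. In OIR the median log2 fold change was 0.20 over 12 bipolar cell markers, 0.25 over 8 horizontal cell markers, -0.01 over 10 rod markers, -0.07 over 8 cone markers, and 0.41 over 8 Müller glia markers, with 1 bipolar gene, Otx2 (0.49, SE 0.09, edgeR adjusted p = 0.0485), and 1 Müller gene, the glutamate carrier Slc1a3 (0.95, SE 0.16, edgeR adjusted p = 0.0447), called higher. The medians were 0.69 over 5 astrocyte and gliosis markers, 0.18 over 9 endothelial and pericyte markers, of which Kdr, a VEGF receptor, rose by 1.10 (SE 0.17, edgeR adjusted p = 0.0407), 0.38 over 6 microglia markers, -0.41 over 6 pigment epithelium markers, and 1.45 over 17 lens markers. On all 9 mice edgeR called no gene of these lists lower. DESeq2 and limma-voom on those mice each called 1 bipolar, 1 horizontal, and 1 microglia gene lower. They called 2, 1, and 0 genes of the same lists higher. With edgeR on the 2 groups alone, 1 bipolar and 1 horizontal gene were called lower, and 1 and 0 higher. The calls of Otx2, Slc1a3, and Kdr were each lost when any of at least 7 mice was left out. Horizontal cells can also hold Gad1, Slc32a1, and the AP-2 genes.

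**Figure D4:**
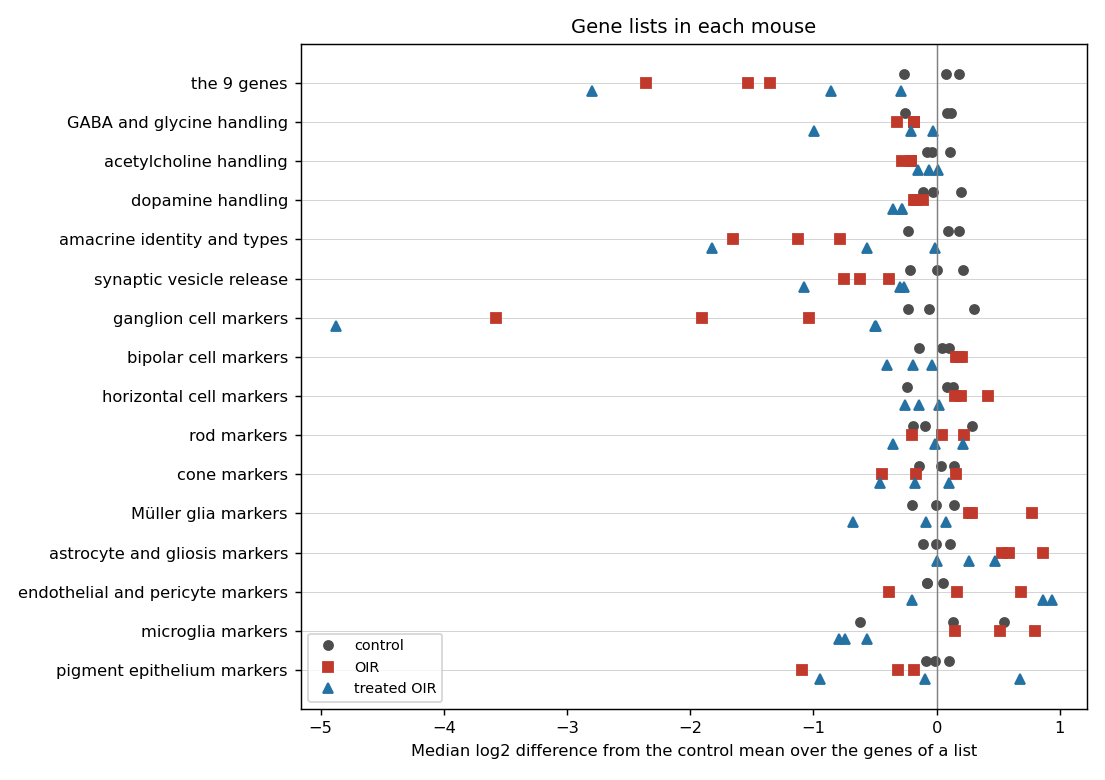
Median log2 difference from the control mean over the genes of each list (x axis) in each mouse (points), for the 9 genes and 15 other lists (y axis); lens markers are left out because treated OIR mouse 2 would set the scale. The 9 genes, the amacrine list, and the ganglion cell markers reach the lowest values, in OIR mouse 6 and treated OIR mouse 2.

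The balance between the genes was compared within each mouse as a log2 ratio, the difference of 2 log2 CPM values. These hold a prior count of 2, and library scaling enters the ratio only through it. With 3 mice against 3, the smallest exact p is 0.1, and over 8 ratios in 3 comparisons, 24 tests, the adjusted p could not pass 0.05. Gad1 was lower relative to Gad2 in both OIR groups. The log2 ratio of Gad1 to Gad2 was 2.50, 2.50, and 2.54 in control, 1.78, 1.86, and 1.45 in OIR, and 1.96, 1.86, and 1.85 in treated OIR mice. The 6 mice of the OIR groups all lay below the 3 controls, with differences of -0.82 in OIR and -0.62 in treated OIR (two-sided exact permutation p = 0.1 and adjusted p = 0.24 for each). Treated OIR mouse 10, with a Gad2 level above the controls, had the same low ratio as the others.

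Tfap2a was lower relative to Tfap2b in OIR, with log2 ratios of -2.15, -2.28, and -2.25 in control, -3.34, -3.23, and -3.56 in OIR, and -1.72, -2.98, and -2.54 in treated OIR mice. The difference was -1.15 in OIR against control and 0.97 in treated OIR against OIR, without overlap in either (exact permutation p = 0.1, adjusted p = 0.24). The glycine carrier was higher relative to Gad1 in OIR, with a difference of 1.09 in the ratio of Slc6a9 to Gad1, and Slc32a1 was higher relative to Gad1 by 0.61, each with no overlap (exact permutation p = 0.1, adjusted p = 0.24). The ratio of Slc6a9 to Slc32a1 differed by 0.48 between OIR and control and by -0.51 between treated OIR and OIR, again without overlap (exact permutation p = 0.1, adjusted p = 0.24).

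Chat relative to Gad1 went from -4.67, -4.64, and -4.40 in control to -9.41, -8.17, and -7.06 in OIR mice, a difference of -3.65 (exact permutation p = 0.1, adjusted p = 0.24), so the cholinergic gene was further below control than the GABA gene in each OIR mouse. The ratio of Th to Gad1 overlapped between OIR and control (difference 0.14, exact permutation p = 0.7, adjusted p = 0.84), and that of Chat to Slc18a3 did as well (difference -0.55, exact permutation p = 0.4, adjusted p = 0.565). With 1 to 4 Chat counts in the OIR mice, the latter ratio is set mostly by counting error and the added prior count. The ratio of Chat to Gad1 also depends on the prior count, with a difference of -4.26 in OIR against control at a prior count of 0.5.

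**Figure D5:**
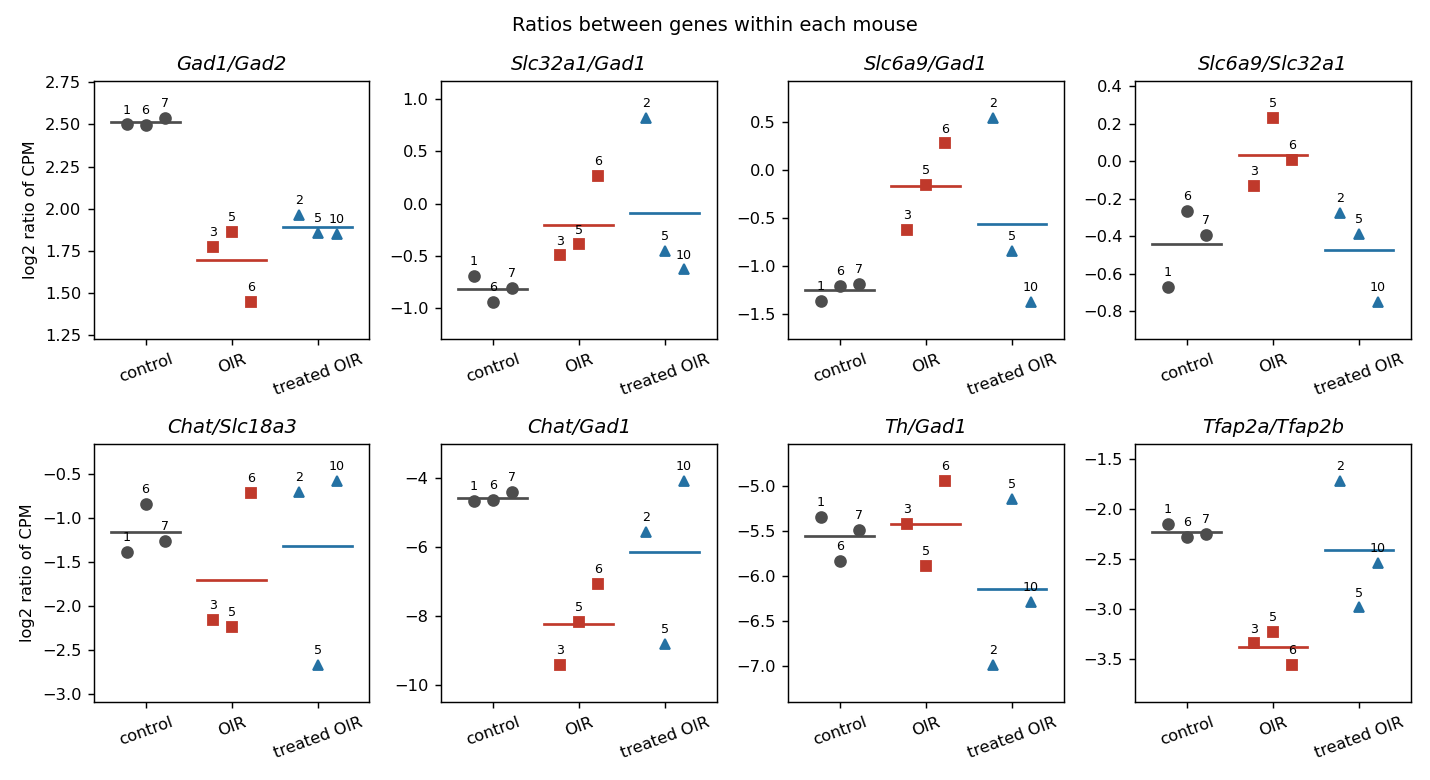
Log2 ratio of the CPM of 2 genes, with a prior count of 2, within each mouse (y axis) for 8 pairs, by group (x axis). Points are mice numbered as in their labels, and horizontal lines are group means. The ratio of Gad1 to Gad2 is 2.50 to 2.54 in the control mice and 1.45 to 1.96 in the 6 mice of the OIR groups.

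Per kilobase of gene length, the order of the levels in control retina was Slc32a1 with 60.1 ± 7.13 CPM per kb (SD, n = 3), Gad1 with 38.8 ± 6.24, Tfap2b with 30.5 ± 4.65, Slc6a9 with 24.4 ± 5.33, Slc18a3 with 11.7 ± 3.31, Gad2 with 8.83 ± 1.35, Tfap2a with 8.39 ± 0.944, Chat with 2.67 ± 0.654, and Th with 2.63 ± 0.399 CPM per kb. The ranges of neighbours in this order overlapped except between Slc32a1 and Gad1, Slc6a9 and Slc18a3, and Tfap2a and Chat. In OIR retina the order ran from Slc32a1 (21.8 ± 5.31 CPM per kb) and Tfap2b (19.5 ± 6.00) over Slc6a9, Gad1, Gad2, Tfap2a, and Th to Slc18a3 (0.305 ± 0.194) and Chat (0.0298 ± 0.0159). Gad1 thus went from 2nd to 4th place and Slc18a3 from 5th to 8th, and only Tfap2a and Th, and Slc18a3 and Chat, were neighbours whose ranges did not overlap.

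Across the 9 mice, the genes whose log2 CPM was most like the mean of the 9 genes' z-scores were Kcnc1 (Pearson r = 0.997), Jph4 (0.996), Zcchc12 (0.996), Rusc1 (0.994), and Tmem179 (0.993), of 13970 candidates with a mean log2 CPM of at least 1. Kcnc1 encodes a potassium channel of fast-spiking neurons and Jph4 a junctophilin of neurons. Kcnc1 had log2 CPM of 6.95, 7.37, and 7.38 in control, 5.81, 5.75, and 4.94 in OIR, and 4.75, 6.20, and 6.76 in treated OIR mice, with treated OIR mouse 2 and OIR mouse 6 the lowest. Of the 9 genes themselves, Gad1 was nearest to that mean (r = 0.993) and Chat farthest from it (0.839). Each of the 9 is part of that mean, so their r values are not comparable with those of the other genes. The values come from the same 9 libraries and share their differences in group and cell content.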

How the data were processed

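Retinal RNA of 9 mice was sequenced, 3 per group, and mice were grouped by their labels. The authors deposited raw counts per gene, with no normalization. The submitters' processing notes name CASAVA and HISAT, and the counting tool, its annotation, and its strand setting are not given in the sources used here. Of 54409 gene identifiers also in GENCODE M21, 98.3% have the same position there, and coordinates are given on GRCm38. The dose is 70 ng in the treatment label and 70 ng/µl in the protocol and the paper. No pair of mice had equal counts in more than 0.614% of genes with a mean count of at least 50.

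Genes were tested with edgeR 4.0.16 (R 4.3.3) under TMM scaling, the default filter by group, and 1 mean per group in a quasi-likelihood fit of all 9 mice. A gene was called at a Benjamini-Hochberg adjusted p below 0.05 over the 17540 genes tested. CPM values hold no prior count, and log2 CPM used a prior count of 2. Ratios were compared with two-sided exact permutation tests (scipy 1.17.1), adjusted over 24 tests, and p-values measure only the spread between these mice. The fits were tested on simulated data with the same spread for every gene and no outlying library. How they perform with a library like treated OIR mouse 2 was not tested. Alternatives were DESeq2 1.42.0, limma 3.58.1 (voom), other scalings, filters and mice, and sex, read from Xist and Y-linked counts, as a covariate.

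Genes named are the 9, at most 4 per list with the largest absolute log2 fold change, the 5 most like the 9, and lens markers where a result turns on them. Some genes under this rule are not reported here. The 9 genes and the 16 lists were chosen with earlier results of these data known.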

Additional observations from a re-analysis of the deposited data

How the results depend on the processing

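In the OIR mice Chat held 1 to 4 counts, Slc18a3 8 to 27, and Th 25 to 44, and the effect of depth on the calls was not tested. The number of the 9 genes called lower in OIR than in control was 0 with edgeR on all 9 mice, 6 with DESeq2 and 6 with limma-voom on those mice, 8 with edgeR and 9 with DESeq2 on the 2 groups, 4 with no filter, and 1 with 10 counts in every mouse. It was 0 with the robust fit, upper-quartile scaling, scaling by totals, and the size factors of DESeq2. In that order these fits called 226, 230, 37, and 135 of all 17540 genes, in either direction. The 9 genes also had 0 called with the added fold limit (53 of all genes) and sex as a covariate (0 of all genes). For the other fits named so far, the share of all genes called lower is given above. Leaving out each mouse gave 0 to 8, with 8 without treated OIR mouse 2 and 4 without treated OIR mouse 10. Every other fit with a mouse left out called 0 of all genes tested. In treated OIR against control the number was 0, 1 with DESeq2 and 3 with limma-voom on all 9 mice, and 0 to 1 with a mouse left out. In treated OIR against OIR it was 0 under all of these. Of 1008 counts of called genes for the 16 lists under the alternatives, 126 moved by over 1.5 times or went to or from 0. The cause of these changes was not tested.

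The fold changes of the 9 genes kept their direction in all 177 alternative fits of OIR against control and in all 177 of treated OIR against control. In treated OIR against OIR 8 of 176 changed direction. Slc6a9 went from 0.05 to -0.014 with total counts alone. With a mouse left out, it ranged from -0.15 to 0.31, Gad2 from -0.078 to 1.10, Tfap2b from -0.22 to 0.63, and Th from -0.18 to 0.97. Of 192 alternative values for the ratios, 10 changed direction, all with a mouse left out. Their differences ranged over such fits from -0.14 to 0.11 for Slc6a9/Slc32a1, -0.53 to 0.52 for Chat/Slc18a3, and -0.53 to 0.10 for Tfap2a/Tfap2b in treated OIR against control, from -0.10 to 0.37 for Th/Gad1 in OIR against control, and from -0.34 to 0.39 for Slc32a1/Gad1 and -0.94 to 0.018 for Slc6a9/Gad1 in treated OIR against OIR. No paired analysis was possible because the groups compared share at most 1 replicate number.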
